A study of Homo sapiens with 4 samples.

Results

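The collagen genes of SUM159 cells were described here, chosen as every gene whose symbol is COL, a number, A and a number. All 44 such symbols were found among the 60279 genes listed in the count tables, and they comprised 11 fibrillar collagens, 8 basement membrane collagens (the type IV chains with COL15A1 and COL18A1) and 25 other collagens. SUM159 is an established triple-negative breast cancer (TNBC) cell line, and poly(A) RNA of these cells was sequenced untreated, with palbociclib, with indisulam and with the combination, with 1 library per condition. Palbociclib is an inhibitor of CDK4 and CDK6, and indisulam is a sulfonamide that brings about the degradation of the splicing factor RBM39. The labels of the libraries give 0.5 µM palbociclib, 2 µM indisulam and 10 days of treatment, whereas the text on the series gives 2 µM, 3 µM and 16 h in technical duplicates, so the dose and the duration were not settled. All 4 cultures had the same medium, which contained serum, insulin and hydrocortisone. The study asked how the addition of indisulam changes the response of such cells to palbociclib, and each collagen was therefore followed from untreated cells to either single drug and to the combination.

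Collagens are secreted proteins in which 3 chains wind into a triple helix. Fibrillar collagens assemble into the banded fibrils that give connective tissue its tensile strength. Type IV collagen forms the sheet-like network of basement membranes, and FACIT collagens such as COL12A1 and COL14A1 attach to the surface of fibrils. Other kinds form beaded filaments (type VI), anchoring fibrils (type VII), hexagonal networks (type VIII) or span the cell membrane (COL13A1, COL17A1 and COL23A1). New chains are hydroxylated and folded in the endoplasmic reticulum, are exported, lose their propeptides outside the cell and are cross-linked by lysyl oxidases.

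The libraries held 12555908 (untreated), 12691481 (palbociclib), 16712174 (indisulam) and 14359529 (combination) reads in genes, and levels are given as CPM, the read count of a gene relative to the gene total of its library. Without replicates no test was possible, and the differences given are between single libraries. A log2 ratio between 2 libraries was taken after adding 1 scaled count, and a gene was called higher or lower when the ratio was at least 2-fold and its 95% counting interval excluded 0. Ranges in brackets after log2 ratios are these intervals, and they cover counting error only. The noise between libraries of a single log2 ratio was bounded for the typical gene, as a standard deviation. The bound was 0.62 for genes at 1 to 5 CPM, 0.37 at 5 to 20 CPM, 0.26 at 20 to 100 CPM and 0.28 above that. It is a bound since the spread taken also holds any interaction of the drugs. That spread was taken over all compared genes of a level, so the noise of a given collagen can exceed it. The markers of the line fitted the label in part. VIM, CD44, AXL, KRT8 and KRT18 summed to between 4518 and 6516 CPM, of which VIM gave the largest part (4598 CPM untreated). ESR1 and PGR had means under 1 CPM. ERBB2, for which a low level was looked for, lay between 110 and 143 CPM, not far below KRT18 in untreated cells (162 CPM). No other line was compared. In these bulk samples, fewer cells of a kind and less RNA per cell cannot be told apart.

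Of the 44 collagen genes, 32 had a mean of at least 1 CPM and were compared, namely 9 fibrillar, 8 basement membrane and 15 other collagens. The filter drew on all 4 libraries, but the same 32 genes were those at 1 CPM or more in the untreated library alone, where the lowest of them was at 1.19 CPM and the highest gene left out, COL8A2, was at 0.717 CPM. COL2A1, the main collagen of cartilage, and COL26A1 had no read in any library, which allowed at most 0.180 to 0.239 CPM (3 counts). A further 8 genes (COL6A5, COL6A6, COL9A1, COL10A1, COL19A1, COL20A1, COL22A1 and COL25A1) had at most 12 reads in a library. COL6A6 had 0, 0, 1 and 12 reads in the untreated, palbociclib, indisulam and combination libraries, which was at least 3.50-fold higher with the combination than a floor of 3 counts in the untreated library. COL22A1 had 0, 0, 1 and 7 reads, at least 2.04-fold higher by the same floor. COL8A2 had 9, 14, 6 and 11 reads, and COL11A1 had 3, 16, 2 and 6 reads.

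**Figure D1:**
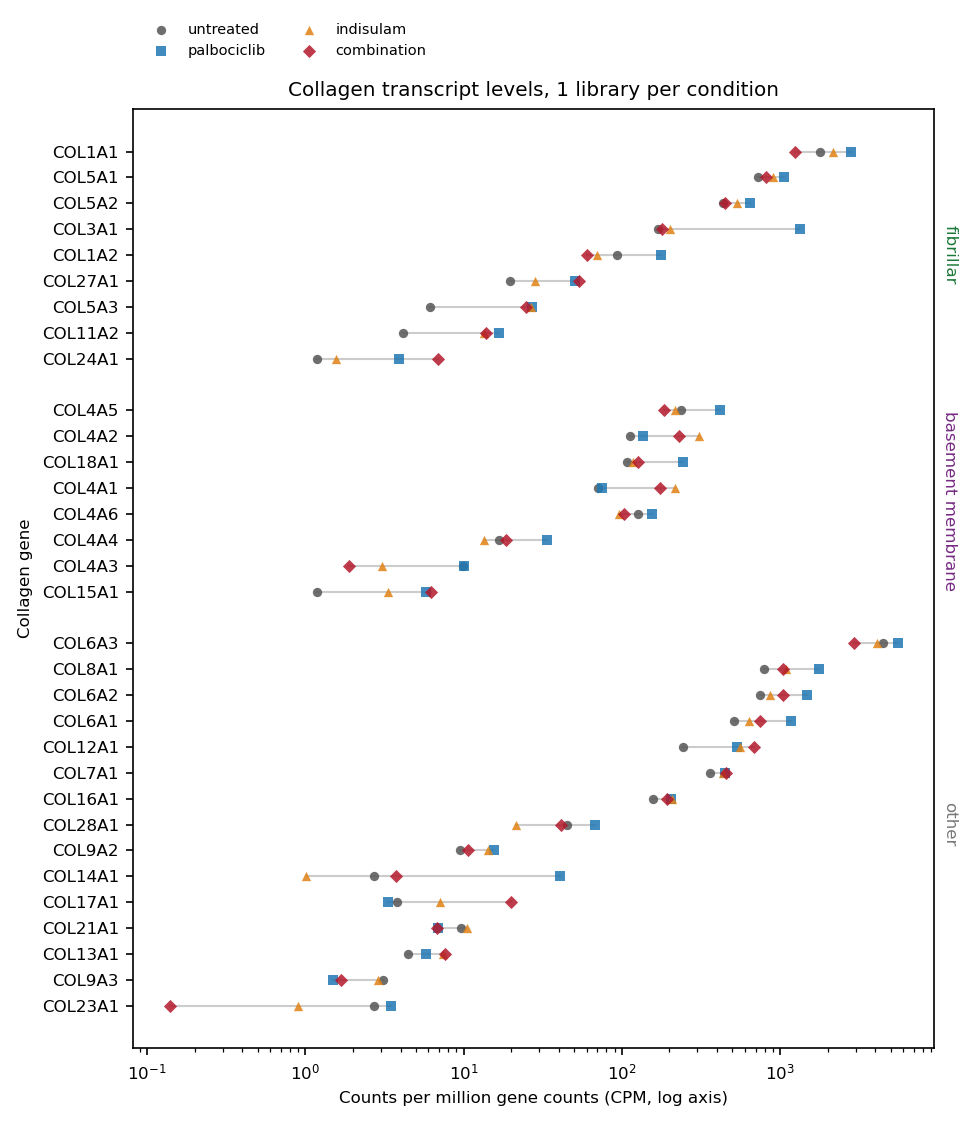
Level of the 32 compared collagen genes in each of the 4 libraries, with 1 point per library on a logarithmic CPM axis and the genes grouped as fibrillar, basement membrane and other. The palbociclib library gave the highest value for 20 of the 32 genes and the untreated library the lowest for 19.

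Palbociclib alone went with the highest collagen level of the 4 conditions. Collagen reads took 1.13% of the gene counts of untreated cells (95% exact binomial interval 1.13 to 1.14), 1.85% with palbociclib (1.84 to 1.86), 1.29% with indisulam (1.28 to 1.29) and 1.09% with the combination (1.08 to 1.09). The share was thus 1.63-fold that of untreated cells with palbociclib, 1.13-fold with indisulam and 0.959-fold with the combination. Fibrillar collagens took 0.325%, 0.612%, 0.393% and 0.285% of the counts in the same order, basement membrane collagens 0.0683%, 0.108%, 0.0976% and 0.0848%, and other collagens 0.740%, 1.13%, 0.796% and 0.718%. All 3 classes were therefore highest in the palbociclib library. Within the basement membrane class, the type IV chains alone were highest with indisulam (0.0855%, against 0.0829% with palbociclib). The classes differed in the combination, where the fibrillar share was 0.875-fold and the basement membrane share 1.24-fold that of untreated cells. COL6A3 alone took 39.7% of the collagen reads of untreated cells and 26.9% of those of the combination. Without COL6A3, collagens took 0.684%, 1.30%, 0.876% and 0.795% of the gene counts, and the combination then lay above untreated cells.

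**Figure D2:**
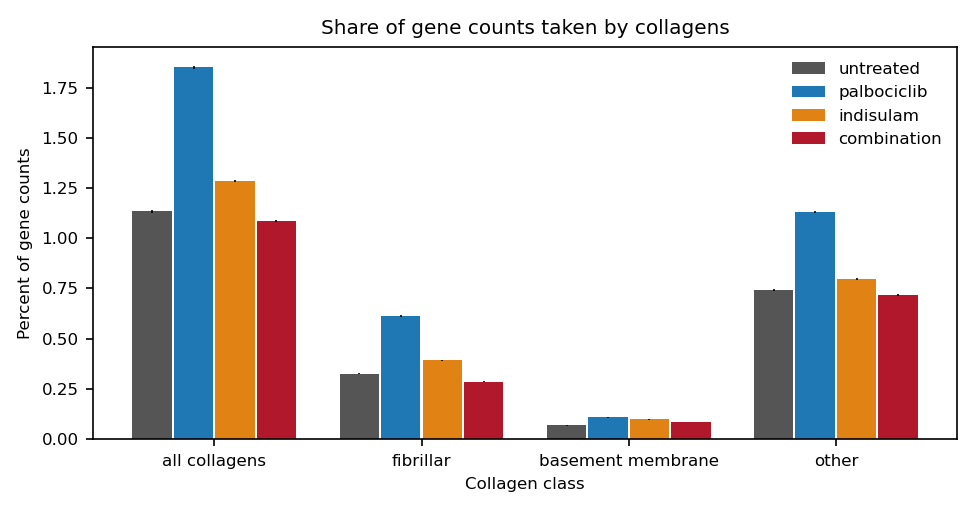
Share of gene counts taken by all collagens and by fibrillar, basement membrane and other collagens in each library, in percent, as bars from 0 with 95% exact binomial intervals for counting error. Each class is highest with palbociclib (0.612%, 0.108% and 1.13%), and the combination lies below untreated cells for fibrillar and other collagens and above them for basement membrane collagens.

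Marker levels of other cell types are given beside these shares. The fibroblast list (PDGFRA, PDGFRB, LUM, DCN and FAP, 5 of 5 compared) summed to 787, 1040, 2029 and 2106 CPM in the untreated, palbociclib, indisulam and combination libraries. Its members parted. DCN, which is also a matrix gene, was at 233, 551, 1681 and 1841 CPM, LUM at 0.478, 5.12, 26.9 and 27.2 CPM and FAP at 22.6, 26.3, 54.1 and 63.4 CPM. DCN, LUM and FAP were called higher with indisulam and with the combination against untreated cells. In contrast, PDGFRA was at 331, 317, 187 and 135 CPM and PDGFRB at 200, 140, 80.4 and 39.2 CPM. PDGFRA and PDGFRB were called lower with the combination against untreated cells, at log2 ratios of -1.30 (-1.37 to -1.22) and -2.35 (-2.48 to -2.22). The endothelial list (1 of 3 compared, PECAM1) summed to 16.1, 43.0, 18.5 and 21.6 CPM and was highest with palbociclib. Of its other members, CDH5 had 5, 23, 0 and 0 reads and VWF 6, 4, 16 and 17 reads. The leukocyte list (1 of 3 compared, PTPRC) summed to 12.3, 12.5, 17.5 and 11.3 CPM, with CD3E at 0 reads in every library. Mitochondrially encoded genes took between 4.90% and 7.33% of the counts, the latter with palbociclib. The part of these differences in the collagen values was not tested.

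Against untreated cells, palbociclib gave 12 collagens called higher of the 32 compared, where 5.88% of all 14269 compared genes were called higher, and 1 called lower, where the figure for all genes was 4.89%. The log2 ratio was above 0 for 29 of the 32, with a median of 0.68 against -0.02 over all compared genes. Indisulam gave 6 collagens called higher (8.40% of all genes) and 4 called lower (6.69% of all genes), with a median log2 ratio of 0.28 against 0.06. The combination gave 9 called higher (12.9% of all genes) and 2 called lower (10.5% of all genes), with a median of 0.26 against 0.05. Set against palbociclib alone, the combination gave 2 called higher (9.57% of all genes) and 7 called lower (7.38% of all genes), with a median of -0.52 against 0.07. Set against indisulam alone it gave 3 called higher (5.04% of all genes) and 1 called lower (3.15% of all genes, and 8.19% in either direction), with a median of -0.08 against -0.01. Read against these shares, the higher calls with palbociclib exceeded the background the most. The lower calls with palbociclib and with the combination against untreated cells were 1 and 2 of 32. The higher calls of the combination against palbociclib were 2 of 32. The lower calls with indisulam were 4 of 32, and the combination against indisulam gave 3 higher and 1 lower. All of these counts are too small to be set apart from the background. COL5A3, COL11A2, COL12A1 and COL15A1 were the 4 collagens called higher with every treatment, in ratios that all share the untreated library. There were 10 compared collagens called in none of the 5 ratios. For neither count was the share of all compared genes taken, so neither is read as particular to collagens.

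The fibrillar collagens were the class with the highest median ratio to untreated cells under palbociclib. All 9 compared were above untreated cells, 5 of them were called higher, where 5.88% of all compared genes were, and the median log2 ratio was 1.38 against -0.02 over all genes. COL3A1 (ENSG00000168542, chr2:188974373-189012746), which forms thin fibrils together with type I collagen in elastic tissues, was at 168 CPM untreated, 1339 with palbociclib, 202 with indisulam and 179 with the combination. It was therefore high in the palbociclib library alone, with a log2 ratio to untreated cells of 2.99 (2.93 to 3.06), and the combination was below palbociclib by a log2 ratio of -2.90 (-2.96 to -2.84). Against untreated cells the combination gave 0.09 (0.01 to 0.17) for COL3A1, a value whose sign changed with the scaling of the libraries. Per kilobase of transcript, COL3A1 stood at 0.101 of COL1A1 in untreated cells, 0.514 with palbociclib, 0.101 with indisulam and 0.155 with the combination.

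The type I chains COL1A1 and COL1A2, which wind into the main fibrillar collagen of skin and bone, followed another course. COL1A1 (ENSG00000108821, chr17:50184101-50201632) was at 1795 CPM untreated, 2807 with palbociclib, 2148 with indisulam and 1246 with the combination. COL1A2 was at 93.4, 177, 69.3 and 60.5 CPM in the same order. Both chains were highest with palbociclib and lowest with the combination. The combination was below palbociclib by a log2 ratio of -1.17 (-1.20 to -1.15) for COL1A1 and -1.55 (-1.66 to -1.44) for COL1A2, and neither chain was called against untreated cells in any treated library (COL1A1 with the combination -0.53, -0.55 to -0.50). Although the type I trimer takes 2 chains of COL1A1 for each COL1A2, COL1A1 exceeded COL1A2 per kilobase by 16.5-fold in untreated cells, 13.6-fold with palbociclib, 26.6-fold with indisulam and 17.7-fold with the combination.

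COL5A1 and COL5A2, which start and limit the width of type I fibrils, kept nearly the same proportion. COL5A1 was at 727, 1059, 908 and 814 CPM in the untreated, palbociclib, indisulam and combination libraries, and COL5A2 was at 437, 642, 531 and 446 CPM. Their log2 ratios with palbociclib were 0.54 (0.50 to 0.58) and 0.55 (0.50 to 0.60), below 2-fold, and per kilobase COL5A1 stood at between 1.33 and 1.48 times COL5A2 in all 4 libraries. The third type V chain did not share this course. COL5A3 (ENSG00000080573, chr19:9959561-10010504) was at 6.13 CPM untreated, 27.2 with palbociclib, 26.6 with indisulam and 24.9 with the combination, with log2 ratios to untreated cells of 2.14 (1.78 to 2.49), 2.10 (1.76 to 2.45) and 2.01 (1.65 to 2.36). All 3 treated libraries were thus alike and above the untreated one, and the combination was not called against either single drug (-0.13, -0.34 to 0.08, against palbociclib and -0.10, -0.30 to 0.11, against indisulam).

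The remaining fibrillar chains were at lower levels. COL11A2, a chain of type XI collagen, was at 4.14, 16.8, 13.4 and 13.9 CPM, and the log2 ratios to untreated cells of the 3 treated libraries were again close to each other, at 2.00 (1.57 to 2.43), 1.68 (1.25 to 2.11) and 1.73 (1.30 to 2.17). COL27A1 was at 19.6, 51.0, 28.3 and 53.9 CPM and COL24A1 at 1.19, 3.94, 1.56 and 6.89 CPM. These 2 genes were highest in the libraries that had palbociclib. COL27A1 gave 1.38 (1.16 to 1.59) with palbociclib and 1.46 (1.25 to 1.66) with the combination, both against untreated cells. COL24A1 gave 1.66 (0.85 to 2.47) and 2.46 (1.70 to 3.22), and 2.10 (1.48 to 2.71) for the combination against indisulam, on 15, 50, 26 and 99 reads.

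In the basement membrane class, COL4A1 and COL4A2, which form the trimer found in nearly all basement membranes, were higher in the libraries that had indisulam. COL4A1 (ENSG00000187498, chr13:110148963-110307157) was at 70.5 CPM untreated, 74.6 with palbociclib, 217 with indisulam and 175 with the combination. COL4A2 (ENSG00000134871, chr13:110305812-110513209) was at 113, 137, 309 and 231 CPM. Both genes were near the untreated level with palbociclib and stood above it in both libraries with indisulam. Against untreated cells, indisulam gave log2 ratios of 1.62 (1.51 to 1.72) for COL4A1 and 1.45 (1.37 to 1.54) for COL4A2. In the presence of palbociclib (combination against palbociclib) the ratios were 1.23 (1.12 to 1.33) for COL4A1 and 0.76 (0.67 to 0.84) for COL4A2, the latter below 2-fold. The combination against untreated cells gave 1.31 (1.20 to 1.42) for COL4A1 and 1.03 (0.94 to 1.12) for COL4A2, and the COL4A2 value fell below 2-fold under all 3 other scalings (0.94 to 1.00). Per kilobase, COL4A1 stood at between 0.538 and 0.744 of COL4A2 in the 4 libraries.

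COL4A1 and COL4A2 are transcribed in opposite directions, and the starts of their canonical transcripts lie 127 bases apart. The annotated genes themselves overlap, since the gene model of COL4A2 begins within that of COL4A1. The longest stretch between the canonical starts without an annotated exon, 100 bases, is shown because the 2 genes moved together, with the GC box (GGGCGG) and the CCAAT box in capitals, 1 of each. It is taken from the RefSeq promoter windows on GRCh38 and lies at chr13:110307158-110307257 on the plus strand.
COL4A1-COL4A2 between starts: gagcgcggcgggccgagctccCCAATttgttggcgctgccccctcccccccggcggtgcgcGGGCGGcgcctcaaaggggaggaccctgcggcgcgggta

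COL4A3 and COL4A4, chains of the specialised basement membranes of kidney and inner ear, are likewise divergent neighbours on chromosome 2, with canonical starts 419 bases apart, yet their levels parted. COL4A3 (ENSG00000169031, chr2:227164624-227314792) was at 9.88 CPM untreated, 10.1 with palbociclib, 3.05 with indisulam and 1.88 with the combination. COL4A4 was at 16.8, 33.7, 13.4 and 18.6 CPM. COL4A3 was thus low in both libraries with indisulam, whereas COL4A4 was high with palbociclib. For COL4A3 the log2 ratios were -1.67 (-2.14 to -1.20) for indisulam against untreated cells, -2.38 (-2.97 to -1.79) for the combination against palbociclib and -2.35 (-2.94 to -1.76) for the combination against untreated cells. For COL4A4 palbociclib gave 1.00 (0.76 to 1.24), a call that was lost with a larger pseudocount (0.99), while indisulam gave -0.32 (-0.60 to -0.05). MFF-DT, a transcript on the opposite strand, overlapped 6.82% of the exon bases of COL4A3, and whether the counting used strand was not given in the sources used here. The bases between the annotated ends of COL4A4 and COL4A3 are shown to set this shared stretch beside that of COL4A1 and COL4A2. It lies at chr2:227164454-227164623 on the plus strand of GRCh38 (RefSeq) and holds 2 GC boxes in capitals, 1 read on either strand, and no CCAAT box.
COL4A3: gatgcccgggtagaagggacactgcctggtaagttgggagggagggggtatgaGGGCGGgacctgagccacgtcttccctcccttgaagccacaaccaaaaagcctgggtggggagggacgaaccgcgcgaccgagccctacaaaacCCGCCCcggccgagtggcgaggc

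COL4A5 and COL4A6, neighbours on the X chromosome with canonical starts 1416 bases apart, were not called against untreated cells in any treated library. COL4A5 was at 237, 419, 217 and 184 CPM and COL4A6 at 126, 155, 96.7 and 104 CPM in the untreated, palbociclib, indisulam and combination libraries. COL4A5 with the combination was below palbociclib alone by a log2 ratio of -1.19 (-1.25 to -1.12). The make-up of type IV collagen differed between libraries, since COL4A5 exceeded COL4A1 per kilobase by 3.36-fold untreated and 5.62-fold with palbociclib, but stood at 1.00 and 1.05 times COL4A1 with indisulam and the combination. The type IV chains as a whole took 0.0573%, 0.0829%, 0.0855% and 0.0714% of the gene counts.

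COL15A1 and COL18A1 are basement membrane proteoglycans whose C-terminal ends are cut to the fragments restin and endostatin. COL15A1 was at 1.19, 5.75, 3.35 and 6.20 CPM on 15, 73, 56 and 89 reads. It was above untreated cells in all 3 treated libraries, with log2 ratios of 2.20 (1.42 to 2.98), 1.43 (0.63 to 2.23) and 2.31 (1.54 to 3.08). COL18A1 was at 108, 242, 118 and 127 CPM and was high in the palbociclib library alone, with a log2 ratio of 1.16 (1.07 to 1.25). Of the exon bases of COL18A1, 18.5% were overlapped by SLC19A1 on the opposite strand, the most among the collagens, and no collagen was overlapped by another gene on its own strand.

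Type VI collagen gave most of the reads of the other class. COL6A3 (ENSG00000163359, chr2:237324003-237414328), the longest of its chains, was at 4502 CPM untreated, 5567 with palbociclib, 4105 with indisulam and 2925 with the combination. COL6A1 was at 515, 1177, 634 and 751 CPM and COL6A2 at 748, 1476, 861 and 1037 CPM. COL6A1 and COL6A2 were lowest in untreated cells, whereas COL6A3 was lowest with the combination. The log2 ratios with palbociclib were 1.19 (1.15 to 1.23) for COL6A1, 0.98 (0.94 to 1.02) for COL6A2 and 0.31 (0.29 to 0.32) for COL6A3. With the combination against untreated cells they were 0.54 (0.50 to 0.59), 0.47 (0.43 to 0.51) and -0.62 (-0.64 to -0.60), none of them called. Per kilobase, COL6A2 stood at between 1.53 and 1.77 times COL6A1 in all 4 libraries, while COL6A3 stood at 3.49 times COL6A1 untreated, 1.89 with palbociclib, 2.58 with indisulam and 1.55 with the combination. The 3 chains, which occur in the type VI monomer in equal numbers, thus did not keep their proportion at the level of the transcripts.

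Among the FACIT collagens, COL14A1, which binds fibrils and regulates their growth, had the highest ratio to untreated cells of any collagen. It was at 2.71 CPM untreated, 40.9 with palbociclib, 1.02 with indisulam and 3.76 with the combination, on 34, 519, 17 and 54 reads. Palbociclib gave a log2 ratio of 3.88 (3.39 to 4.38) without indisulam and 1.82 (1.05 to 2.58) with it, and indisulam gave -1.35 (-2.17 to -0.53) without palbociclib and -3.42 (-3.82 to -3.02) with it. COL14A1 was therefore called in both estimates of either drug, in opposite directions for the 2 drugs. COL12A1 (ENSG00000111799, chr6:75084326-75206267), a FACIT collagen of dense connective tissue, was at 242, 535, 556 and 681 CPM, with log2 ratios to untreated cells of 1.14 (1.08 to 1.20), 1.20 (1.14 to 1.26) and 1.49 (1.43 to 1.55). It was the most abundant collagen that was called higher with every treatment. COL16A1 was at 158, 206, 208 and 192 CPM, COL21A1 at 9.64, 6.85, 10.6 and 6.76 CPM, and COL9A2 at 9.48, 15.5, 14.4 and 10.7 CPM, and none of these was called in a ratio of 2 libraries. COL9A3 was at 3.11, 1.5, 2.87 and 1.67 CPM, on 39, 19, 48 and 24 reads, and was the only collagen called lower with palbociclib (-1.02, -1.79 to -0.24), a call also lost with the larger pseudocount (-0.90).

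The transmembrane collagens went in opposite directions. COL17A1 (ENSG00000065618, chr10:104031286-104085880), the hemidesmosome protein that anchors basal epithelial cells to the basement membrane, was at 3.82 CPM untreated, 3.31 with palbociclib, 7.12 with indisulam and 19.99 with the combination, on 48, 42, 119 and 287 reads. It was highest in the combination, with log2 ratios of 2.36 (1.93 to 2.80) against untreated cells, 2.57 (2.11 to 3.03) against palbociclib and 1.48 (1.17 to 1.79) against indisulam. Neither drug alone was called against untreated cells (palbociclib -0.20, -0.79 to 0.39, and indisulam 0.89, 0.41 to 1.36). COL23A1 was at 2.71, 3.47, 0.898 and 0.139 CPM, on 34, 44, 15 and 2 reads. It was lowest in the combination, where the 2 reads gave 0.0514 of the untreated level (exact counting interval 0.00599 to 0.201) and 0.155 of the level with indisulam (0.0172 to 0.667). COL13A1 was at 4.46, 5.75, 7.42 and 7.66 CPM and was not called.

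Of the remaining collagens, COL8A1, which forms hexagonal networks under endothelia, was at 794, 1759, 1091 and 1045 CPM in the untreated, palbociclib, indisulam and combination libraries. It was highest with palbociclib, with a log2 ratio to untreated cells of 1.15 (1.11 to 1.18). COL7A1, the anchoring fibril collagen of skin, was at 362, 450, 438 and 456 CPM and was not called. COL28A1 was at 45.1, 67.4, 21.6 and 41.4 CPM and was called lower with indisulam against untreated cells (-1.06, -1.25 to -0.87).

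The layout gives 2 estimates of either drug that share no library. Palbociclib is estimated by palbociclib against untreated cells and by the combination against indisulam, and indisulam by indisulam against untreated cells and by the combination against palbociclib. For palbociclib, COL14A1 and COL24A1 were called higher in both estimates, 2 of 32 where 2.02% of all compared genes were, and no collagen was called lower in both (1.24% of all genes). For indisulam, COL4A1 was called higher in both (1 of 32, where 4.87% of all genes were) and COL4A3, COL14A1 and COL23A1 were called lower in both (3 of 32, where 3.66% of all genes were). No collagen was called in opposite directions. Of the 12 collagens called higher with palbociclib alone, most were thus not called when palbociclib was added to indisulam, COL3A1 among them (-0.17, -0.25 to -0.10). The same held for most genes, since 839 of all compared genes were called higher with palbociclib alone and 288 in both estimates.

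**Figure D3:**
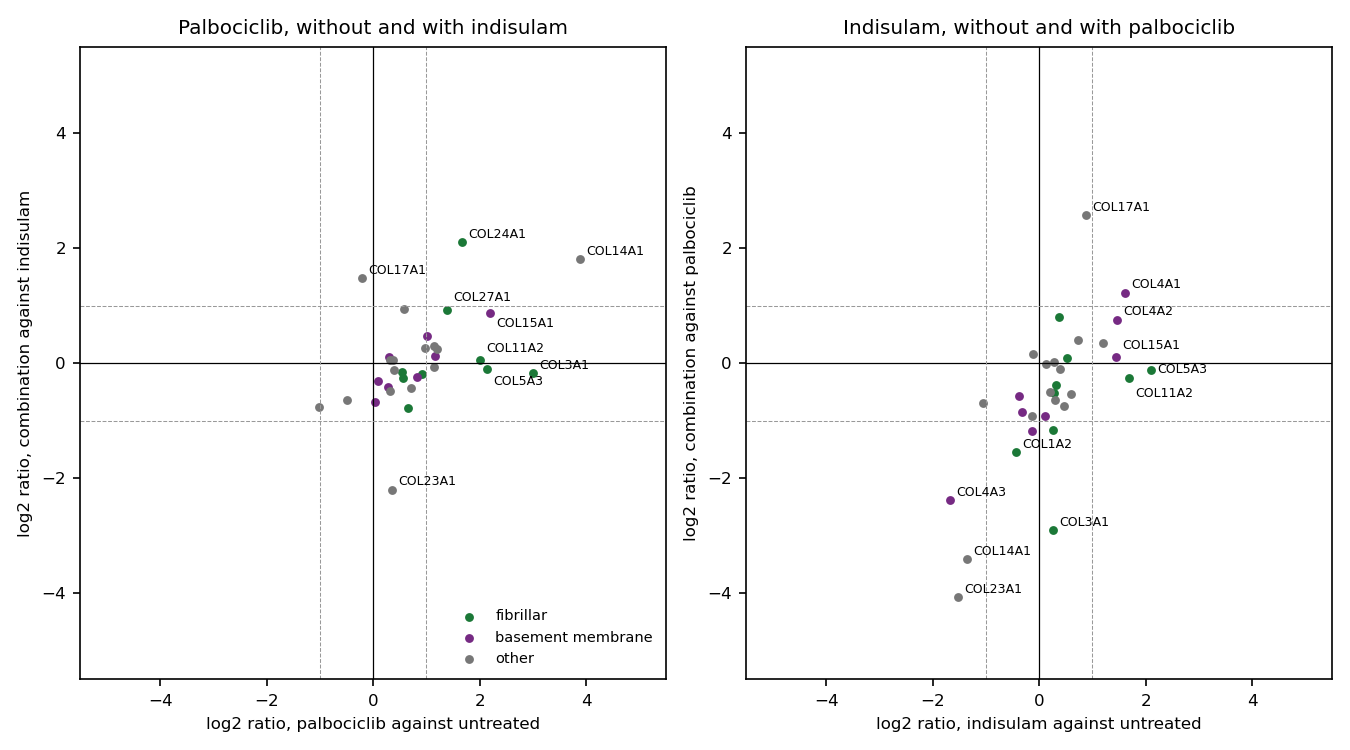
Estimates of palbociclib (left) and of indisulam (right) for the 32 compared collagens, as log2 ratios without the other drug (horizontal) and with it (vertical), coloured by class, with dashed lines at 2-fold and names beside the genes with the largest ratios. COL14A1 and COL24A1 lie past 2-fold in both estimates of palbociclib and COL3A1 only in that without indisulam, while COL4A1, COL4A3, COL14A1 and COL23A1 lie past 2-fold in both estimates of indisulam.

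How far the combination departed from the sum of the single drugs was measured as the log2 ratio of the combination to untreated cells minus the log2 ratios of both single drugs. It was called below the sum for 12 of 32 collagens, where 3.83% of all compared genes were, and above the sum for 1, where 3.93% of all genes were (7.77% in either direction). The departure was below 0 for 28 of 32 collagens, with a median of -0.75 against 0.01 over all genes. This measure subtracts the palbociclib library, in which 20 of the 32 collagens had their highest value, so it is not independent of the ratios given for palbociclib. COL3A1 had the lowest departure, -3.17 (-3.27 to -3.07), followed by COL23A1 at -2.55 (-4.44 to -0.66), which rests on 2 reads with the combination. COL5A3 gave -2.23 (-2.64 to -1.82), COL14A1 -2.07 (-2.98 to -1.15) and COL11A2 -1.95 (-2.46 to -1.43). For COL5A3 and COL11A2 each drug alone and the combination reached about the same level, and for COL3A1 and COL14A1 the combination stood near the untreated level. The type I chains COL1A1 and COL1A2 departed by -1.43 (-1.47 to -1.40) and -1.12 (-1.28 to -0.96). COL17A1 was the collagen called above the sum, at 1.68 (1.02 to 2.35).

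**Figure D4:**
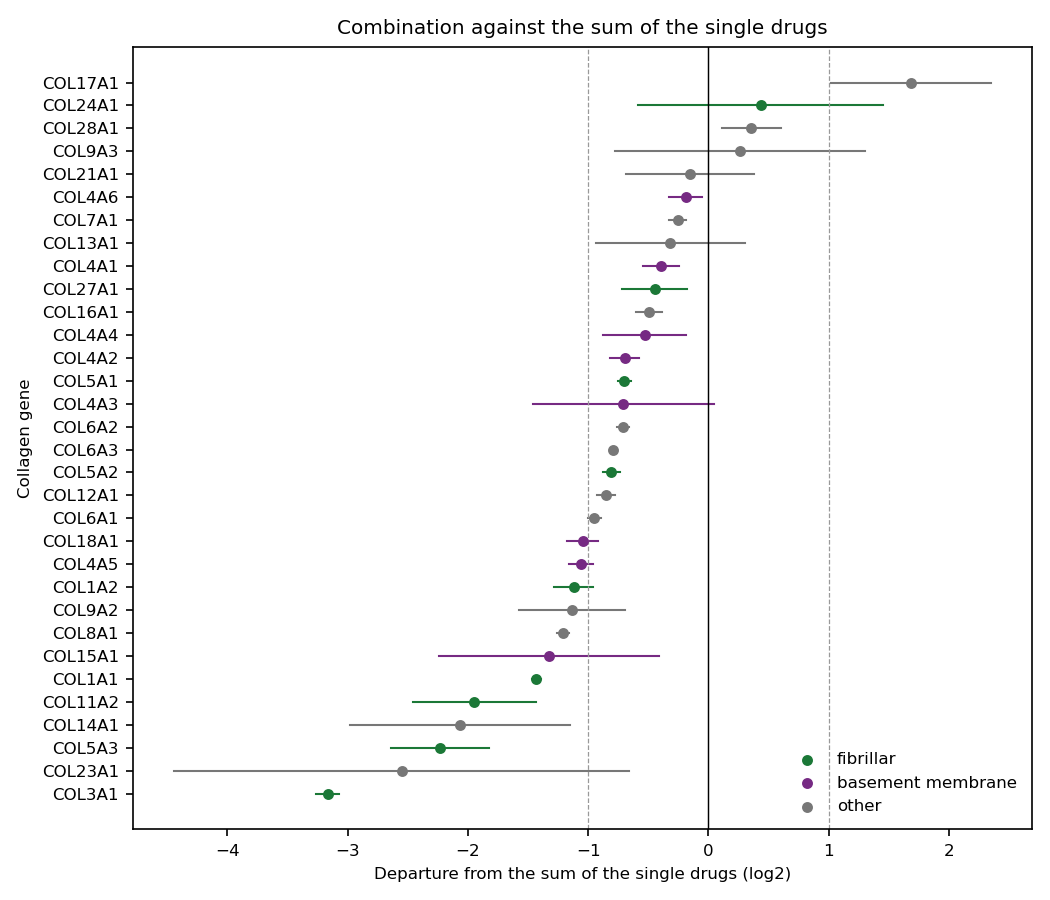
Departure of the combination from the sum of the single drugs for the 32 compared collagens, as points with 95% counting intervals on a log2 axis, sorted and coloured by class. The points run from -3.17 (COL3A1) to 1.68 (COL17A1), and 28 of the 32 lie below 0.

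The promoters of COL5A3, which was higher with every treatment, and of COL17A1, which was highest with the combination, are shown because the combination fell below the sum of the single drugs for the former and above it for the latter. Each is the 250 bases before the annotated start, on the minus strand of GRCh38 (RefSeq). The GC box, the CCAAT box and the letters of the TATA box (TATAAA) are in capitals wherever they occur. They lie at chr19:10010505-10010754 (COL5A3) and chr10:104085881-104086130 (COL17A1).
COL5A3: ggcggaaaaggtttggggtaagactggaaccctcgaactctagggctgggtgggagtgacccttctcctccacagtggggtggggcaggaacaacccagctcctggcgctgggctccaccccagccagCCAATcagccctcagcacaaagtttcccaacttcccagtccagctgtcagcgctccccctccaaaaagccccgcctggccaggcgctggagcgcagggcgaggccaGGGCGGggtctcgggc
COL17A1: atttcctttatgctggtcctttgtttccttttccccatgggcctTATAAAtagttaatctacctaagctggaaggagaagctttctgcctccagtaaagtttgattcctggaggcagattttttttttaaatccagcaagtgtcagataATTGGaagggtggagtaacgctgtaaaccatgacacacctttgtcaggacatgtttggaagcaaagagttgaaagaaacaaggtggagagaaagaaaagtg

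The stretch before COL5A3 holds 1 GC box and 1 CCAAT box. That before COL17A1 holds 1 TATAAA match, 201 bases before the start, and 1 CCAAT box on the other strand. Whether the TATAAA match serves this start was not tested. Promoter windows (250 bases before to 50 after the start) were matched for 32 of the 44 collagens. Searched on both strands, GGGCGG was found in 21 of these 32 (65.6%, against 48.3% of all gene symbols with a window), CCAAT in 12 (37.5% against 39.7%) and TATAAA in 7 (21.9% against 14.0%). The AP-1 motif TGANTCA was found in 1 (3.13% against 9.37%), the window of COL10A1. These matches describe the letters of the windows and were not compared with the levels.

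Among the genes that modify, export, cut, cross-link and bind collagen, the fibril-associated group was high with palbociclib, as the collagens were. Its median ratio to untreated cells was highest with the combination, however, whereas that of the collagens was highest with palbociclib. The hydroxylation and export groups were not high with palbociclib. From a list of 63 such genes, 62 were found and 58 compared. Against untreated cells, palbociclib gave 11 of the 58 called higher and 4 lower (5.88% and 4.89% of all compared genes), indisulam 9 and 10 (8.40% and 6.69%), and the combination 11 and 13 (12.9% and 10.5%). Over the whole list the median log2 ratio with palbociclib was 0.01, where that of the collagens was 0.68. The 6 export genes had a median of -0.32 with palbociclib. The 18 enzymes and chaperones of chain hydroxylation and folding had median log2 ratios of -0.43 with palbociclib, -0.49 with indisulam and -0.30 with the combination. With the combination 3 of the 18 were called lower, where 10.5% of all compared genes were, namely P3H2 (-1.08, -1.17 to -0.98), P3H3 (-1.36, -1.57 to -1.15) and P3H4 (-1.47, -1.62 to -1.32), which belong to the prolyl 3-hydroxylase family. A count of 3 of 18 is too small to be set apart from that share. The lysyl hydroxylase PLOD2 was the only 1 of the 18 called higher with the combination, at 187, 188, 303 and 427 CPM (1.19, 1.12 to 1.26). The prolyl 4-hydroxylase subunits P4HA1, P4HA2 and P4HA3, named after their values were seen, were called above the sum of the single drugs, at 1.25 (1.10 to 1.40), 1.05 (0.92 to 1.18) and 1.39 (0.89 to 1.88), where the collagens lay mostly below it.

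Of the genes that remove propeptides, ADAMTS2, which trims the N-terminal propeptide of fibrillar procollagens, was at 85.1, 83.1, 46.0 and 21.7 CPM, and the combination was below untreated cells by a log2 ratio of -1.97 (-2.15 to -1.79). PCOLCE, which enhances C-propeptide removal, was at 301, 510, 121 and 110 CPM. It was lower in both libraries with indisulam, with log2 ratios of -1.31 (-1.39 to -1.23) without palbociclib and -2.21 (-2.29 to -2.13) with it. ADAMTS14 was called higher in all 3 treated libraries (10.8, 23.3, 23.5 and 26.7 CPM). The secretion regulator CREB3L1 was at 162, 106, 83.5 and 75.7 CPM and was called lower with the combination (-1.10, -1.21 to -0.99), the only one of the 6 compared export genes to be called. Of the 5 lysyl oxidases, LOXL1 (named after its values were seen) and LOXL4 were called higher with palbociclib, where 5.88% of all compared genes were. With indisulam 0 were called, where 15.1% of all compared genes were in either direction. LOXL4 was the one called lower with the combination against untreated cells (10.5% of all compared genes). With 5 genes these counts are too small to set the drugs apart.

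The fibril-associated proteins were the group with the most genes called higher. With palbociclib 6 of 9 were called higher and 0 lower (5.88% and 4.89% of all compared genes), with a median log2 ratio of 1.24. Indisulam gave 5 of 9 called higher and 1 lower (8.40% and 6.69% of all compared genes), with a median of 1.30. With the combination against untreated cells 5 of 9 were called higher and 1 lower (12.9% and 10.5% of all compared genes), with a median of 2.38. The medians of the collagens were 0.68, 0.28 and 0.26 in the same order, so the group did not follow their course. Decorin (DCN), a proteoglycan that binds fibril surfaces, was at 233, 551, 1681 and 1841 CPM, with log2 ratios for indisulam of 2.85 (2.79 to 2.90) without palbociclib and 1.74 (1.70 to 1.78) with it. Its neighbour on chromosome 12, lumican (LUM), was at 0.478, 5.12, 26.9 and 27.2 CPM, on 6, 65, 449 and 390 reads. Both genes were highest in the 2 libraries with indisulam. Fibromodulin (FMOD) had 3, 21, 32 and 119 reads, which was 34.7-fold higher with the combination than untreated (exact counting interval 11.6 to 171). Biglycan (BGN) was at 10.8, 27.3, 1.14 and 3.34 CPM, called higher in both estimates of palbociclib and lower in both of indisulam, as was COL14A1. Periostin (POSTN) was at 33.1, 178, 185 and 218 CPM, a course like that of COL5A3, and tenascin C (TNC) at 189, 437, 253 and 981 CPM, highest with the combination. Thrombospondin 1 (THBS1) was at 3267, 2289, 8049 and 5261 CPM and was called higher in both estimates of indisulam.

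Of the partners of basement membrane collagen, nidogen 1 (NID1) was at 204, 70.8, 126 and 47.8 CPM and was called lower in both estimates of palbociclib (-1.53, -1.64 to -1.42, without indisulam and -1.39, -1.52 to -1.27, with it). PXDN, the peroxidase that cross-links type IV collagen, was at 0.876, 1.26, 1.80 and 4.81 CPM. Among the receptors, the discoidin receptors parted, with DDR1 at 146, 118, 67.3 and 51.6 CPM and DDR2 at 6.61, 15.8, 14.2 and 27.0 CPM. DDR1 was lowest and DDR2 highest with the combination, at log2 ratios to untreated cells of -1.49 (-1.62 to -1.37) and 2.02 (1.68 to 2.36). ITGA10 was at 232, 224, 116 and 28.8 CPM, and was called lower in both estimates of indisulam, as were DDR1 and MRC2, and with the combination against every other library. ITGA11, which binds fibrillar collagen, was at 63.4, 249, 147 and 129 CPM and was called higher in all 3 treated libraries. ITGB1, the beta chain that these integrins share, was called higher with the combination (1.10, 1.06 to 1.13), the endocytic receptor MRC2 was called lower (-1.69, -1.77 to -1.60), and so was the inhibitory receptor LAIR1, on 42, 9, 10 and 5 reads.

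**Figure D5:**
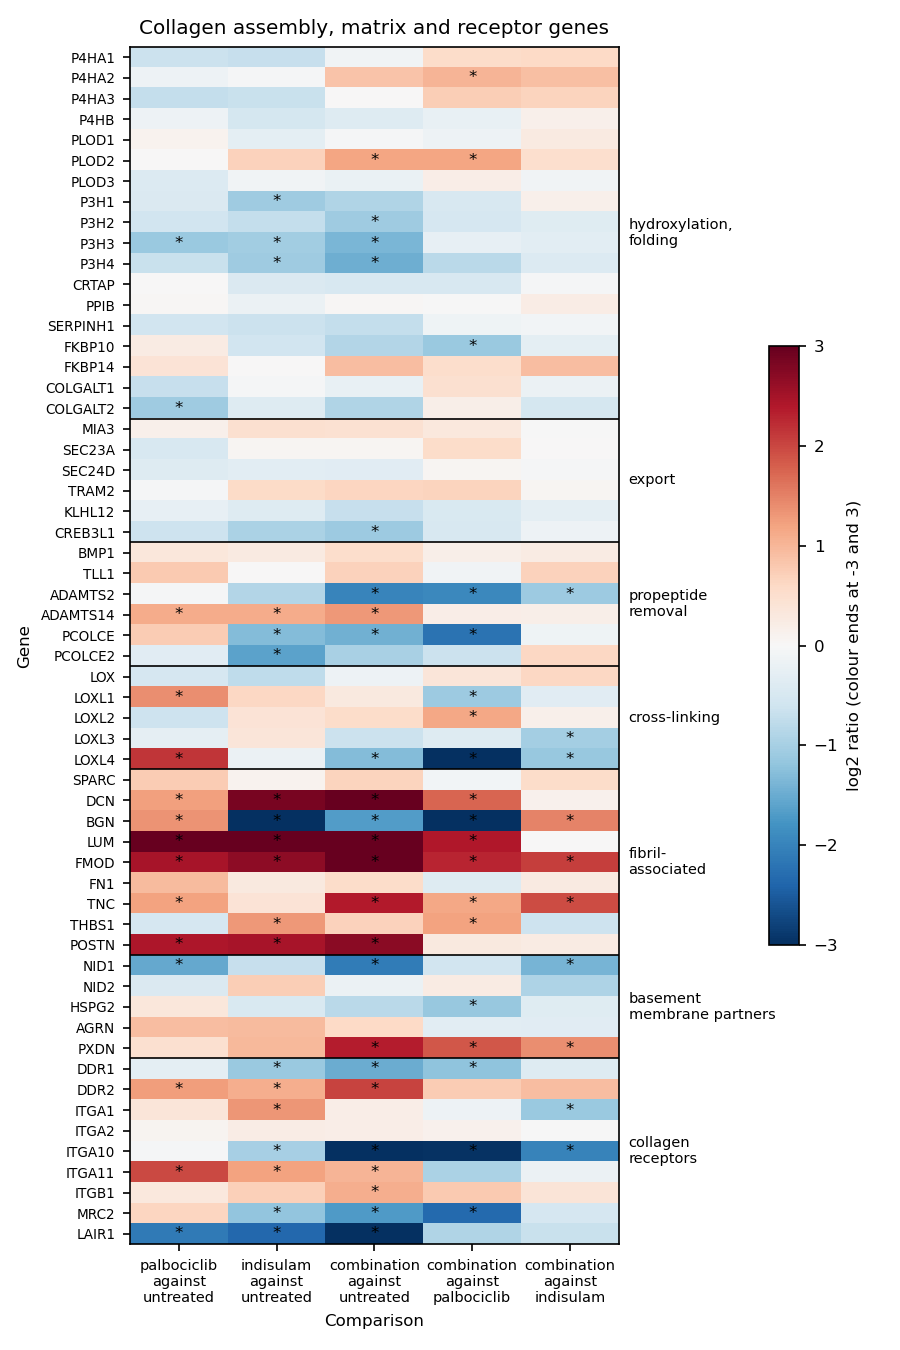
Log2 ratios of the 58 compared genes for collagen hydroxylation, export, propeptide removal, cross-linking, fibril association, basement membrane partnership and collagen binding, in the 5 comparisons of libraries, as a colour scale that ends at -3 and 3, with asterisks for genes called at 2-fold. Asterisks are most frequent among the fibril-associated genes, where DCN, LUM, FMOD and POSTN are high in every treated library, and sparse among the hydroxylation, folding and export genes.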

How the data were processed

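Deposited values were read counts per Ensembl gene, which the authors did not normalize. Per the labels, RNA was extracted with Trizol and libraries were made with a stranded mRNA kit, and the submitters' processing notes name TopHat2 2.1, HTSeq and GRCh38. The strand setting of the counting, the annotation release and any pooling of duplicates were not given in the sources used here. Tallies of reads outside single genes (9.61% to 10.1% of all counts) were left out of totals. Reads aligned to several places were not counted, so near-identical genes may be undercounted.

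Counts were scaled to the mean gene total, and genes with a mean of at least 1 CPM were compared (14269 of the 29056 genes with a read). Log2 ratios took a pseudocount of 1 scaled count with 95% Poisson intervals. The spread of the departure over genes, divided by the square root of 2, bounded the noise of a ratio for the typical gene. The ratio code was tested on simulated data. Every compared collagen was named. Pathway genes were named when called in both estimates of a drug or in the combination against untreated cells. Gene positions, transcript lengths (Ensembl canonical) and exon overlaps came from GENCODE 44, and promoters from RefSeq (GRCh38.p14). Alternatives used factors from edgeR 4.0.16 and DESeq2 1.42.0 (R 4.3.3), another pseudocount, filter, fold or interval. Python 3.11.15 was used. The collagens, classes and other lists were chosen with earlier results of these data known. Groups came from the labels, which name no batch, so a batch and a condition cannot be told apart.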

Additional observations from a re-analysis of the deposited data

Results flagged for a closer look

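LOXL4, a lysyl oxidase that cross-links collagen, moved in opposite directions with palbociclib in the absence and in the presence of indisulam. It was at 10.1 CPM untreated, 45.3 with palbociclib, 8.92 with indisulam and 4.04 with the combination, on 127, 575, 149 and 58 reads. Palbociclib gave a log2 ratio of 2.16 (95% counting interval 1.88 to 2.43) without indisulam and -1.13 (-1.56 to -0.69) with it, both past 2-fold, which called for a closer look. The difference between these ratios is the departure from the sum of the single drugs, which was -3.28 (-3.80 to -2.77). Its interval covers counting error only, and the difference was not tested, since each condition had 1 library. No collagen was called in opposite directions in this way.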

How the results depend on the processing

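No paired analysis was possible because each condition had 1 library, and for the same reason no library could be left out. The 32 compared collagens gave 192 log2 ratios and departures, each recomputed under 3 other scalings and a pseudocount of 5 scaled counts (768 values). Of these, 623 either kept a call, whatever the size of the shift, or were not called and moved by no more than their standard error of counting. A further 136 values that were not called moved by more than that error and stayed without a call. Of the rest, 5 lost a call and 4 gained one, and 0 called values changed sign. COL4A2 with the combination against untreated cells lost its call under TMM (0.94), upper-quartile (1.00) and median-of-ratios (0.96) factors, and COL4A4 (0.99) and COL9A3 (-0.90) with palbociclib lost theirs with the larger pseudocount. COL6A3 and COL18A1 gained a lower call in the combination against palbociclib with TMM (-1.03 and -1.02) and median-of-ratios factors (-1.01 and -1.01). The combination against untreated cells gave COL5A2 ratios of -0.07, -0.01 and -0.05 under the 3 other scalings, where the value given was 0.03, and neither sign was called.

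With the pseudocount of 5, or with a filter of at least 5 CPM, 0 collagens were called lower with palbociclib instead of 1. The filter of 5 CPM left 1 instead of 2 called lower with the combination against untreated cells, 0 instead of 1 in the combination against indisulam, and 2 instead of 4 pathway genes called higher there. With a 1.5-fold threshold, collagens called lower with the combination numbered 5 against untreated cells, 13 against palbociclib and 5 against indisulam, those called higher numbered 4 against palbociclib and 6 against indisulam, and 19 lay below the sum of the single drugs instead of 12. The same threshold gave 17 higher and 10 lower pathway genes with palbociclib, 15 and 18 with indisulam, and 18 and 21 with the combination. It gave 12 higher in the combination against indisulam. The share of all compared genes called at 1.5-fold was not taken, so these counts cannot be set against a background. As a share of counts without mitochondrial genes, collagens took 1.21%, 2.00%, 1.35% and 1.16% in the untreated, palbociclib, indisulam and combination libraries. With TMM totals they took 1.17%, 1.91%, 1.26% and 1.05%, with the tallies included 1.02%, 1.67%, 1.16% and 0.983%, and without COL6A3 0.684%, 1.30%, 0.876% and 0.795%, where the combination lay above untreated cells.

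Depth limited the collagens under 5 CPM, for which few reads decided the ratio, and those under 1 CPM were not compared. Nothing here measures how far cultures under the same condition differ.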

Other observations

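Transcripts named like collagens that are not collagen chains were near 0. The pseudogene COL6A4P1 had 9, 4, 7 and 2 reads in the untreated, palbociclib, indisulam and combination libraries, and COL6A2-DT, a transcript divergent from COL6A2, had 1, 3, 3 and 7 reads.

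Neighbouring collagen genes did not always share a course. COL3A1 and COL5A2, which are convergent on chromosome 2 with 19152 bases between them, stood at log2 ratios of 2.99 (95% counting interval 2.93 to 3.06) and 0.55 (0.50 to 0.60) with palbociclib. COL6A1 and COL6A2, which lie on the same strand of chromosome 21 with 93062 bases between them, stood at 1.19 (1.15 to 1.23) and 0.98 (0.94 to 1.02).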
